A study of Mus musculus with 11 samples.

Results

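The simple epithelial keratins of the bile duct are described here: Krt7, Krt8, Krt18, Krt19, Krt20 and Krt23. They were chosen by symbol, not by their values, and all 6 were found among the 23185 array features that carry exactly 1 gene symbol, under the gene numbers 110310, 16691, 16668, 16669, 66809 and 94179. The study sorted mouse liver cells by YFP, a yellow fluorescent protein that marks cells descended from the biliary epithelium, and measured their RNA on 11 whole-transcript mouse arrays. YFP+ DDC cells came from mice fed a diet with 3,5-diethoxycarbonyl-1,4-dihydrocollidine for 5 weeks, a model of cholestatic injury (3 arrays). YFP+ CDE cells were taken after a diet that lacks choline and contains ethionine, a model of steatotic hepatocyte injury (3 arrays). YFP+ UTR cells came from untreated mice (2 arrays), and YFP- cells were the unlabelled fraction of untreated mice (3 arrays). UTR here always means untreated. All cells were live cells sorted from the non-parenchymal pellet of perfused, digested livers, with the gate set on wild type mice. The labels give no age, no duration for CDE and no promoter for the YFP label. The protocol gives 4 mice for DDC and does not tie arrays to animals. The p-values below therefore cover the spread between arrays of a group, whose source may be technical.

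Keratins are the intermediate filament proteins of epithelia, and a filament is built from obligate pairs of an acidic type I and a basic type II chain. Krt8 and Krt7 encode type II chains, and Krt18, Krt19, Krt20 and Krt23 encode type I chains. In the adult liver the pair of keratins 8 and 18 is made by hepatocytes and bile duct cells alike, while keratins 7 and 19 are added in bile duct cells and are used by pathologists to stain them. Keratin 20 is best known from gut epithelium and the urothelium, and keratin 23 from stressed and transformed epithelia. DDC feeding is known for raising keratins 8 and 18 in mouse hepatocytes, where they gather in Mallory-Denk bodies. Mesothelial cells, which cover the liver surface, also use keratins 7, 8, 18 and 19.

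The start regions of the genes are shown because their products are made in pairs and their levels are compared below. The RefSeq promoter table of GRCm38.p6 held an entry for 5 of the 6 genes. Each line gives 30 bases of the coding strand, 5′ to 3′, around the first match to TATAA or ATAAA, letters also found at the core of a TATA box, between 40 bases before and 20 bases after the annotated start. Capitals mark the matched letters, and where the 2 motifs overlap (TATAAA) both are marked. The match begins at position -1 in Krt8, -19 in Krt18, -7 in Krt7, -29 in Krt20 and -31 in Krt23, counted from the annotated start.
Krt8, chr15:102004327-102004356, minus strand: tggcctcttctttTATAAAgggccttcgct
Krt18, chr15:102028184-102028213, plus strand: cctcccgcggcgaTATAAcaacaggtcgag
Krt7, chr15:101412383-101412412, plus strand: cccgcatggaggaATAAAaggtcgcagact
Krt20, chr11:99438166-99438195, minus strand: gtctcttgaactcTATAAAaggtcatctcc
Krt23, chr11:99493135-99493164, minus strand: cacagcaaagggcATAAAaccatctcaagc
The coding strand held a match in 5 of 5, against 9.09% of 32851 promoters in the table. The window was widened after these sequences had been seen, so the 5 matches cannot be weighed against that share. The same holds for TATAA alone, which matched in 3 of 5 (Krt8, Krt18 and Krt20), against 5.09% of promoters. Over the whole 300-base entries and both strands, GGGCGG, the core of a GC box, occurred only in Krt7, against 35.7% of promoters. TGANTCA, the AP-1 motif, occurred in 0 of 5, against 7.81%. Krt8 and Krt18 are direct neighbours on chromosome 15, and Krt20 and Krt23 on chromosome 11. Krt7 lies on chromosome 15 between Krt80 and Krt87, and Krt19 on chromosome 11 between Krt15 and Krt9.

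The YFP+ label was checked against 15 bile duct genes. Their mean level ran from 9.71 to 10.05 over the 8 YFP+ arrays, against 5.20 to 7.64 over the 3 YFP- arrays (log2 expression values, where the medians of the arrays ran from 5.63 to 5.76). The 9 sinusoidal endothelial markers ran from 5.11 to 5.75 in YFP+ and from 9.97 to 11.67 in YFP-. The hepatocyte markers overlapped, with means of 7.16 to 8.31 in YFP+ and 6.63 to 8.14 in YFP-. The YFP- arrays differed in makeup: bile duct genes were highest on replicate 1 (7.64, against 5.52 and 5.20 on replicates 2 and 3), lymphocyte genes on replicate 2 (10.41, against 4.37 and 4.68) and macrophage genes on replicate 3 (11.61, against 9.33 and 9.07). Replicate 1 was also highest in endothelial markers (11.67, against 9.97 and 10.26) and in stellate cell and fibroblast markers (7.84, against 5.81 and 6.50). Neutrophil markers were highest on replicate 2 (9.81, against 6.90 and 6.82). Genes varied less between arrays of DDC (median SD 0.15), CDE (0.12) or UTR (0.11) than between YFP- arrays (0.26). The keratin differences from YFP- are therefore given with and without YFP- replicate 1.

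The first comparison, UTR against YFP-, asks which keratins the labelled lineage carries. By limma over all 11 arrays, at an adjusted p of 0.05, 5 of 6 keratins were higher in UTR, by 3.87 to 4.70 on the log2 scale, or 14.6- to 26.0-fold. Krt20 did not pass. Over all genes 10.4% were called higher and 8.46% lower in this comparison. On every one of the 6 keratins the lowest UTR array lay above the highest YFP- array, which also held for 22.5% of all genes. The samples are bulk RNA, so fewer cells of a type and less RNA per cell cannot be told apart.

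Krt8, the type II chain of the simple epithelial pair, read 11.58 and 11.39 on the UTR arrays, against 9.45, 6.12 and 5.75 on YFP- replicates 1, 2 and 3. Its partner Krt18 read 12.64 and 12.24 in UTR, against 10.71, 7.13 and 6.69 in YFP-. In both genes the groups did not overlap, and YFP- replicate 1 lay between the other YFP- arrays and UTR. The differences were 4.38 ± 0.88 for Krt8 (SE; adjusted p = 0.00757, limma) and 4.27 ± 0.95 for Krt18 (SE; adjusted p = 0.0128, limma). Krt8 and Krt18 were the only keratins here whose YFP- values all lay above the array median.

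Krt7, the type II keratin that marks ducts, read 9.64 and 9.31 in UTR, against 7.27, 4.78 and 4.76 in YFP-. The type I keratin Krt19 read 10.64 and 10.47 in UTR, against 8.28, 4.64 and 4.65 in YFP-. On YFP- replicates 2 and 3 both genes lay below the array median and near the lower quartile of those arrays (4.36 and 4.38). The differences were 3.87 ± 0.64 for Krt7 (SE; adjusted p = 0.00292, limma) and 4.70 ± 0.90 for Krt19 (SE; adjusted p = 0.00627, limma). No background signal is given with these values, so a true difference may be larger than these.

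Krt23, a further type I keratin, followed the same split, with 10.08 and 9.77 in UTR, against 7.40, 4.72 and 4.39 in YFP-. It was higher in UTR by 4.42 ± 0.72 (SE; adjusted p = 0.00272, limma), which lies between the differences of Krt7 and Krt19. Krt20 read 5.50 and 5.17 in UTR, against 4.65, 4.43 and 4.68 in YFP-. All of these values lay below the array medians, and the difference of 0.75 ± 0.52 had an adjusted p of 0.372 (SE; limma). Krt20 lay above the array median on only 2 of the 11 arrays, CDE replicate 1 and DDC replicate 1.

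**Figure D1:**
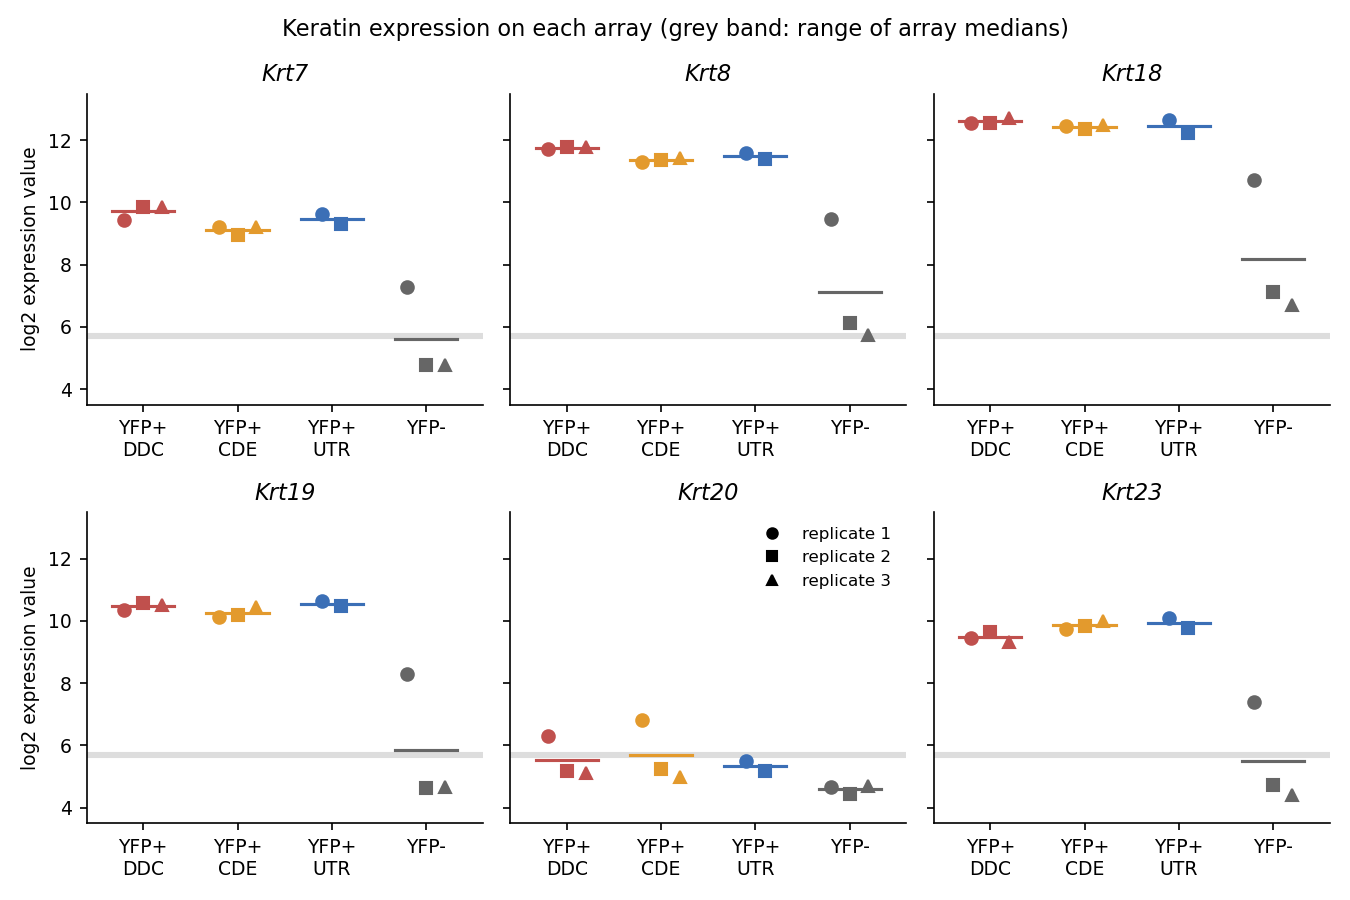
Log2 expression value of each of the 6 keratins on each array (y axis, log scale) in YFP+ DDC, YFP+ CDE, YFP+ UTR and YFP- cells; marker shape gives the replicate, the short line the group mean and the grey band the range of the array medians. Krt7, Krt8, Krt18, Krt19 and Krt23 are high on all 8 YFP+ arrays, YFP- replicate 1 lies between them and the other YFP- arrays, and Krt20 stays near or below the band except on CDE replicate 1 and DDC replicate 1.

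The limma calls rested on a spread shared by all 4 groups. It is too small for YFP- in Krt7, Krt8, Krt18, Krt19 and Krt23 (the SD of Krt18 was 0.28 in UTR, against 2.21 in YFP-). Krt20 was the reverse, with an SD of 0.14 in YFP-, against 0.99 in CDE and 0.66 in DDC. When the 5 UTR and YFP- arrays were fitted alone, 0 of 6 keratins passed, with adjusted p from 0.0868 to 0.161, and 4.02% of all genes were called. Without adjustment all 6 had a limma p under 0.05 there, as did 21.3% of all genes. Without UTR replicate 1 Krt8 and Krt18 had adjusted p of 0.0570 and 0.0871, without UTR replicate 2 they had 0.0512 and 0.0671, and 3 of 6 keratins were called each time.

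The YFP- array with intermediate keratin levels was set against its own bile duct genes. YFP- replicate 1 carried Krt7 at 21.7% of the UTR mean, Krt8 at 24.5%, Krt18 at 30.1%, Krt19 at 20.6% and Krt23 at 17.3%. In log2 units UTR exceeded this array by 1.73 to 2.53 in the 5 keratins (median 2.21), and by 0.58 to 3.35 in the 15 bile duct genes (median 2.17). Against the mean of YFP- replicates 2 and 3 the same array was higher by 2.50 to 3.80 in the 5 keratins (median 3.52) and by 0.09 to 4.74 in the bile duct genes (median 2.69). Krt20 was an exception, higher there by only 0.09. The mean level of the hepatocyte markers was lowest on this array (6.63, against 7.52 and 8.14 on replicates 2 and 3). Cyp2e1 (10.13, against 6.43 and 7.64) and Hnf4a (7.09, against 5.72 and 6.54) were highest there, while the other markers of that list were lowest. The part that cells of duct type play in the YFP- values was not tested.

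**Figure D2:**
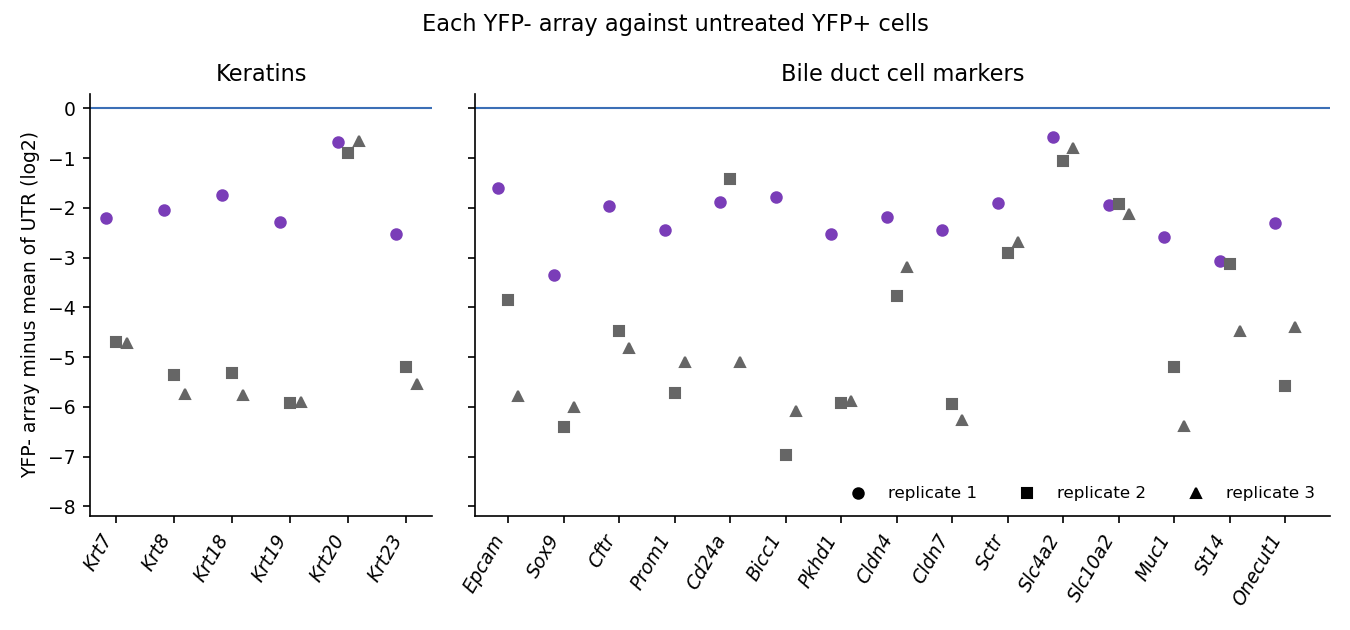
Log2 difference of each YFP- array from the UTR mean (y axis; blue line at 0 is UTR) for the 6 keratins at left and the 15 bile duct genes at right; replicate 1 is purple. In Krt7, Krt8, Krt18, Krt19 and Krt23 replicate 1 lies 1.73 to 2.53 below UTR and replicates 2 and 3 lie further below, as in most bile duct genes.

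Without YFP- replicate 1 the differences between UTR and YFP- were 4.71 for Krt7, 5.55 for Krt8, 5.53 for Krt18, 5.91 for Krt19, 0.78 for Krt20 and 5.37 for Krt23. The same 5 keratins passed, the largest adjusted p among Krt7, Krt8, Krt18, Krt19 and Krt23 being that of Krt7 at 6.85e-07 (limma). In that fit 2911 of 23185 genes were called higher, and only YFP- replicates 2 and 3 remained. The array left out held the highest YFP- values of these 5 keratins, so larger differences were fixed by that choice. The smaller p-values therefore add nothing to the test on all arrays.

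The 8 YFP+ arrays of all diets were then set against the 3 YFP- arrays. This comparison mixes the label with the diets, since all YFP- mice were untreated. Again Krt7, Krt8, Krt18, Krt19 and Krt23 were called higher, by 3.83 ± 0.48, 4.43 ± 0.65, 4.32 ± 0.71, 4.57 ± 0.67 and 4.25 ± 0.53 (SE, limma; adjusted p at most 0.00158), against 16.3% of all genes called higher. In an exact two-sided permutation test over the arrays each of these 5 had p = 0.00606, the smallest that 165 splits allow. For Krt20 the difference was 0.93 ± 0.39 with an adjusted p of 0.103 (SE, limma), and its exact permutation p, unadjusted, was 0.0424. Its YFP+ arrays ran from 4.99 to 6.81 (median 5.21) and its YFP- arrays from 4.43 to 4.68, so the groups did not overlap. All 6 keratins were without overlap in this direction, against 13.9% of all genes. Without YFP- replicate 1 the differences were 4.67 for Krt7, 5.61 for Krt8, 5.59 for Krt18, 5.78 for Krt19, 0.96 for Krt20 and 5.20 for Krt23, and the same 5 passed. In that fit 7797 of 23185 genes were called in either direction. The larger differences of these 5 again followed from the choice of array.

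Diet effects were read among the YFP+ arrays, mainly in a fit of these 8 arrays alone, where the wide YFP- spread plays no part. No keratin passed an adjusted p of 0.05 in any of the 3 diet comparisons, in the 8 arrays or in all 11. In the 8 arrays 1.16% of all genes were called in DDC against CDE, 0.16% in DDC against UTR and 0% in CDE against UTR. In the 11 arrays the shares were 0.00431%, 0% and 0%. Without adjustment 15.3%, 10.4% and 6.44% of all genes had a limma p under 0.05 in the 8 arrays, and so did 3 keratins (Krt7, Krt8 and Krt23) in DDC against CDE, 2 (Krt8 and Krt23) in DDC against UTR and 0 in CDE against UTR. The intervals below bound the changes that these arrays leave possible.

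Of the 6 keratins the type II chains Krt7 and Krt8 had the largest DDC minus CDE estimates, neither past the test. Krt7 read 9.45, 9.86 and 9.86 on DDC arrays, 9.19, 8.94 and 9.21 on CDE arrays and 9.64 and 9.31 on UTR arrays. Every CDE array lay below every other YFP+ array, as in 3.14% of all genes. DDC minus CDE was 0.61 ± 0.15 (SE; 95% interval 0.26 to 0.96; adjusted p = 0.111, limma, 8 arrays). Against UTR the difference was 0.25 ± 0.17 for DDC (SE; interval -0.14 to 0.64; adjusted p = 0.665) and -0.36 ± 0.17 for CDE (SE; interval -0.75 to 0.03; adjusted p = 0.797).

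Krt8 read 11.72, 11.79 and 11.77 on DDC arrays, 11.31, 11.37 and 11.44 on CDE arrays and 11.58 and 11.39 on UTR arrays. Every DDC array lay above every other YFP+ array, as in 4.57% of all genes. DDC minus CDE was 0.39 ± 0.09 (SE; interval 0.19 to 0.60; adjusted p = 0.0885, limma, 8 arrays), a fold of 1.31. Against UTR the difference was 0.28 ± 0.10 for DDC (SE; interval 0.05 to 0.51; adjusted p = 0.379) and -0.11 ± 0.10 for CDE (SE; interval -0.34 to 0.12; adjusted p = 0.938).

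The type I keratins Krt18 and Krt19 had smaller estimates. Krt18 read 12.56, 12.55 and 12.72 on DDC arrays, 12.46, 12.37 and 12.48 on CDE arrays and 12.64 and 12.24 on UTR arrays. DDC lay above CDE without overlap, as in 9.64% of all genes, but their difference was only 0.18 ± 0.12 (SE; interval -0.10 to 0.45; adjusted p = 0.536), and UTR spanned both diets. Krt19 read 10.34, 10.58 and 10.51 in DDC, 10.11, 10.19 and 10.45 in CDE and 10.64 and 10.47 in UTR. CDE lay below UTR without overlap, as in 10.5% of all genes, with a difference of -0.31 ± 0.13 (SE; interval -0.62 to 0.002; adjusted p = 0.780), and DDC overlapped both.

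In both DDC comparisons the estimate for Krt23 had the opposite sign to that for Krt8. Krt23 read 9.46, 9.64 and 9.33 on DDC arrays, 9.75, 9.83 and 10.00 on CDE arrays and 10.08 and 9.77 on UTR arrays. Every DDC array lay below every other YFP+ array, as in 5.41% of all genes. The difference was -0.38 ± 0.13 for DDC against CDE (SE; interval -0.67 to -0.09; adjusted p = 0.202) and -0.45 ± 0.14 for DDC against UTR (SE; interval -0.78 to -0.12; adjusted p = 0.313; without overlap, as in 11.8% of all genes), while CDE and UTR overlapped.

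Krt20 read 6.29, 5.17 and 5.12 on DDC arrays, 6.81, 5.25 and 4.99 on CDE arrays and 5.50 and 5.17 on UTR arrays. Replicate 1 of each diet stood above all the other arrays. DDC minus CDE was -0.16 with all arrays, 0.41 without CDE replicate 1 and -0.54 without DDC replicate 1. Its sign thus turned without CDE replicate 1 but not without DDC replicate 1. The sign also turned without DDC replicate 2 or 3. The SD of Krt20 over the 8 YFP+ arrays was 0.66, larger than in 98.3% of genes. The SD was 0.15 for Krt18, 0.19 for Krt19, 0.20 for Krt8, 0.25 for Krt23 and 0.33 for Krt7. In that order these were larger than in 39.6%, 53.9%, 57.8%, 75.2% and 87.7% of genes.

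**Figure D3:**
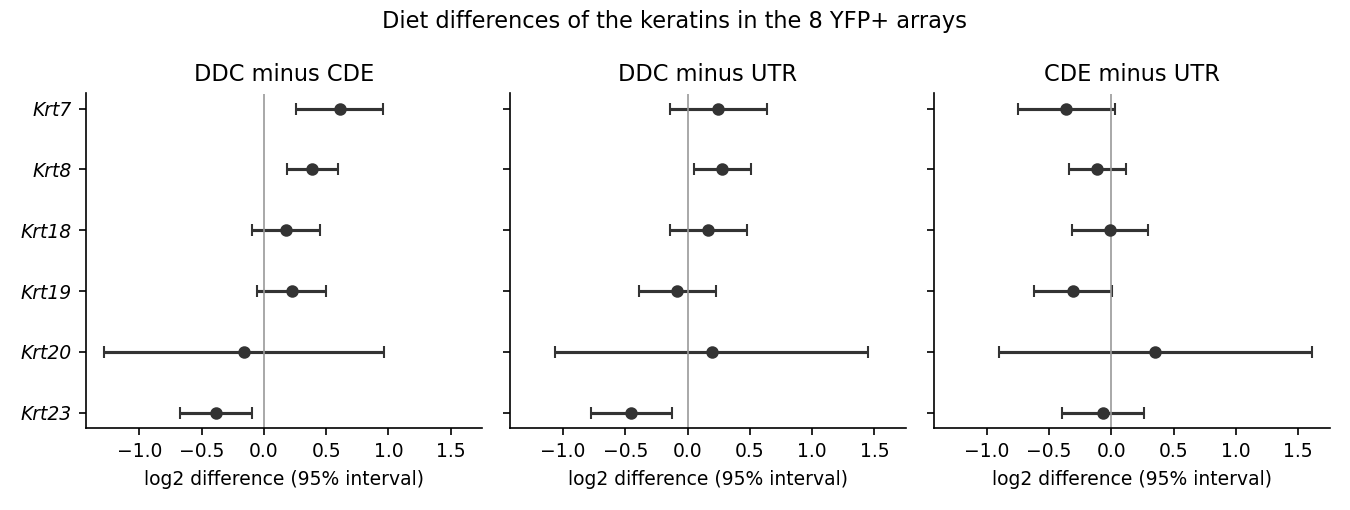
Log2 difference (x axis) of each keratin in DDC minus CDE, DDC minus UTR and CDE minus UTR, fitted on the 8 YFP+ arrays; points are estimates and bars 95% intervals without adjustment for the number of genes. Krt7 and Krt8 lie to the right of 0 and Krt23 to the left in DDC minus CDE; no adjusted p was under 0.05.

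In the order of group means, Krt8 and Krt7 ran DDC, UTR, CDE, YFP-, as did Krt18. Krt19 and Krt23 were highest in UTR, with DDC ahead of CDE for Krt19 and CDE ahead of DDC for Krt23. Krt20 ran CDE, DDC, UTR, YFP-. YFP- was last in all 6, below every YFP+ array. Neighbouring YFP+ groups without overlap were DDC above UTR in Krt8 (as in 12.7% of all genes), CDE below UTR in Krt7, and DDC below CDE in Krt23 (as in 10.6%).

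A hepatocyte marker, unlike the keratins, was called between the diets. In DDC against CDE 1 of 16 fell, Alb, the serum albumin gene (-0.73 ± 0.09, SE; adjusted p = 0.0162, limma, 8 arrays). Alb read 11.85, 11.70 and 11.86 in DDC, against 12.48, 12.58 and 12.54 in CDE. Over all genes 0.418% were called higher and 0.742% lower in DDC against CDE in the 8 arrays. The hepatocyte list had a median difference of -0.31 and 2 of 16 values above 0, against 0.013 and 12281 of 23185 over all genes. Its mean level was 7.45, 7.25 and 7.39 on the DDC arrays, 7.39, 8.31 and 7.38 on the CDE arrays and 7.16 and 7.41 on the UTR arrays, so a single array, CDE replicate 2, stood above the DDC range. Krt7 was lowest among the YFP+ arrays on that array, but no other keratin was. Krt8 and Krt19 were lowest on CDE replicate 1, Krt18 on UTR replicate 2, Krt20 on CDE replicate 3 and Krt23 on DDC replicate 3. The bile duct list, without Krt7 or Krt19, had 1 of 15 higher, Muc1, a membrane mucin (0.69 ± 0.12, SE; adjusted p = 0.0403, limma), and a median of 0.05. The part of admixed hepatocytes in the keratin differences was not tested.

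A ratio of 2 keratins within an array cancels any change in duct RNA that both share. Such ratios are given here on the log2 scale minus their mean in UTR, with no test, for some of the 15 possible pairs, picked after their values were seen. The share of all gene pairs with such a split was not worked out. Krt8 over Krt18 stayed between -0.30 and 0.20 on all 11 arrays, YFP- included. Krt8 over Krt23 read 0.71, 0.60 and 0.89 on DDC arrays, 0.00, -0.02 and -0.12 on CDE arrays and -0.06 and 0.06 on UTR arrays. Every DDC array thus lay above every CDE and UTR array.

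Krt7 over Krt23 read 0.44, 0.67 and 0.98 in DDC, -0.11, -0.44 and -0.34 in CDE and 0.01 and -0.01 in UTR. Krt19 over Krt23 read 0.24, 0.31 and 0.55 in DDC, -0.27, -0.27 and -0.18 in CDE and -0.07 and 0.07 in UTR. Krt18 over Krt23 read 0.58, 0.39 and 0.88 in DDC, 0.19, 0.02 and -0.04 in CDE and 0.04 and -0.04 in UTR. These 4 ratios all share Krt23, which was lowest on the DDC arrays, so they are not independent of each other or of that reading. Krt7 and Krt8 over Krt19, without Krt23, also put every DDC array above every CDE and UTR array, though narrowly. Krt7 over Krt19 read 0.20, 0.37 and 0.43 in DDC, 0.17, -0.17 and -0.16 in CDE and 0.08 and -0.08 in UTR. Krt8 over Krt19 read 0.46, 0.29 and 0.34 in DDC, 0.27, 0.26 and 0.06 in CDE and 0.01 and -0.01 in UTR. Krt18 over Krt19 did not split this way. Krt7 over Krt8 did not show this split, with -0.27, 0.08 and 0.09 in DDC, -0.11, -0.42 and -0.22 in CDE and 0.07 and -0.07 in UTR.

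**Figure D4:**
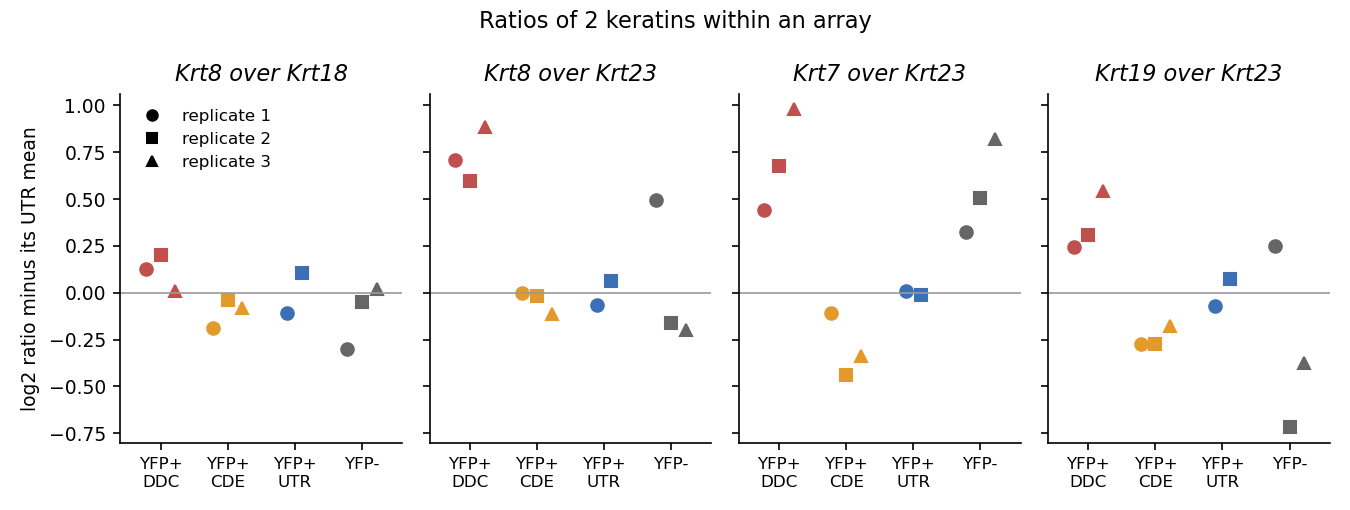
Log2 ratio of 2 keratins on the same array minus the mean of that ratio in UTR (y axis) for YFP+ DDC, YFP+ CDE, YFP+ UTR and YFP- arrays; marker shape gives the replicate. Krt8 over Krt18 stays within -0.30 and 0.20 on all arrays, while the ratios over Krt23, which share that gene, are higher on each DDC array than on each CDE and UTR array.

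The rest of the keratin family was read in the same fits. Of 47 other keratins measured, 4 were higher and 1 lower in UTR against YFP-, with a median difference of 0.16 (all genes -0.01; median of the 6 keratins 4.32). Over all genes 10.4% were higher and 8.46% lower, so neither count was a larger share than over all genes. The higher ones were Krt17, a keratin of basal and wounded epithelia (2.10 ± 0.40, SE; adjusted p = 0.00566, limma), and, by less than 1 log2 unit, the hair keratins Krt32 (0.56) and Krt86 (0.68) and Krt42 (0.45). The hair keratin Krt35 was lower (-0.45). Without either UTR array alone 1 of 47 was called, without YFP- replicate 3 there were 6 higher and 1 lower, and in the 5 UTR and YFP- arrays alone 0 were called. Krt17 read 7.37 and 6.30 in UTR, against 4.66, 5.11 and 4.44 in YFP-, so it was not highest on YFP- replicate 1. None of the 47 was called in a diet comparison in either fit.

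Keratin filaments are anchored to desmosomes and other junctions by linker proteins. Of 9 linkers measured 6 were higher and 0 lower in UTR against YFP- (median 1.05), where 10.4% of all genes were higher and 8.46% lower. They were Dsp, desmoplakin (4.43 ± 0.72, SE; adjusted p = 0.00275, limma), the plakins Ppl (3.07) and Evpl (1.05), the plakophilins Pkp2 (2.93) and Pkp3 (0.95), and Jup, plakoglobin (1.70). Dsp read 10.48 and 10.76 in UTR, against 8.07, 4.94 and 5.54 in YFP-, again with replicate 1 in between, and the difference was 5.38 without that array. The count was 4 without UTR replicate 1 or replicate 2, 7 without YFP- replicate 1 and 0 in the 5 arrays alone.

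Of 12 keratin regulators and chaperones 4 were higher and 1 lower in UTR (10.4% and 8.46% of all genes). The higher ones were Pof1b (2.69), Fam83h, which recruits casein kinase to keratin filaments (2.69), the small heat shock gene Hspb1 (1.88) and Tchp, trichoplein (0.69). Dnajb6, a co-chaperone that binds keratin 18, was lower (-0.92). The counts were the same without YFP- replicate 1. Without UTR replicate 1 they were 3 and 0, without UTR replicate 2 they were 2 and 0, and in the 5 arrays alone also 2 and 0.

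**Figure D5:**
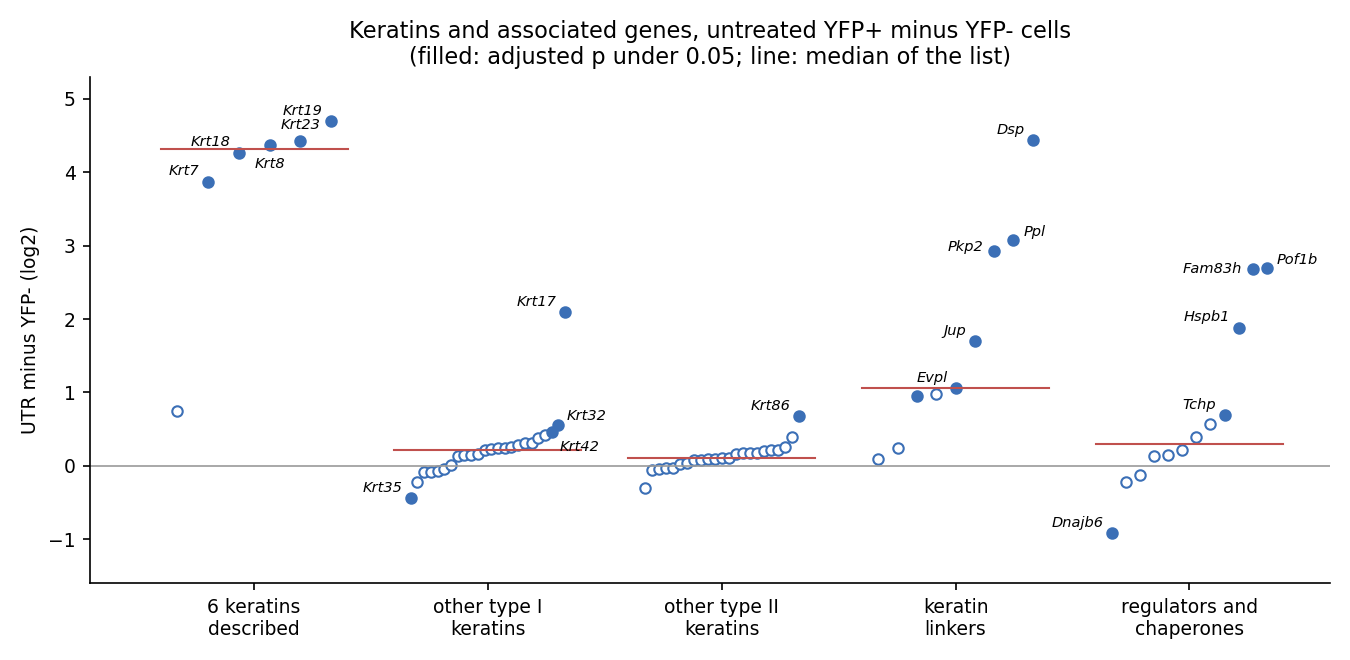
Log2 difference of UTR minus YFP- (y axis) for the 6 keratins, 24 other type I and 23 other type II keratins, 9 linkers and 12 regulators and chaperones, sorted within each list; filled points had an adjusted p under 0.05 in the 11-array fit and red lines mark list medians. The 5 duct keratins lie near 4, most other keratins lie near 0, and Dsp is the linker nearest to the duct keratins.

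Among the linkers the diets differed in Jup. It read 10.66, 10.69 and 10.82 in DDC, against 10.07, 10.03 and 10.26 in CDE, and was higher in DDC by 0.61 ± 0.10 (SE; adjusted p = 0.0355, limma, 8 arrays). This was the only linker of 9 to pass, where 0.418% of all genes were called higher and 0.742% lower. Of the 9 differences 8 were positive (median 0.32), against 12281 of 23185 over all genes (median 0.013). Dst, dystonin, read 8.13, 8.09 and 8.01 in DDC, against 7.47 and 7.24 in UTR, a difference of 0.72 ± 0.10 with an adjusted p of 0.0574 (SE; limma, 8 arrays). In the 11-array fit 0 linkers passed in a diet comparison.

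Of 18 epithelial transcription and splicing factors 7 were higher and 2 lower in UTR against YFP- (median 0.24; 10.4% and 8.46% of all genes). The ETS factors Ehf (4.73 ± 0.76, SE; adjusted p = 0.00267, limma) and Elf3 (3.26), the grainyhead factor Grhl2 (3.58) and Klf5 (3.42) led the higher ones. Ets1 (-2.31) and Klf4 (-1.59) were lower. Klf4, a factor of differentiating epithelia, also differed between the diets. It read 7.70, 7.22 and 6.86 in DDC, against 5.79, 5.87 and 6.21 in CDE, and was higher in DDC by 1.31 ± 0.21 (SE; adjusted p = 0.0355, limma, 8 arrays). It was the only one of the 18 called there, where 0.418% of all genes were called higher and 0.742% lower. For UTR against YFP- the counts were 7 higher and 3 lower without YFP- replicate 1, 7 higher and 1 lower without UTR replicate 1 or 2, and 3 higher and 1 lower in the 5 arrays alone. Without YFP- replicate 1 Ehf differed by 5.70.

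Of 13 other intermediate filament genes 1 was higher and 1 lower in UTR against YFP-, where 10.4% of all genes were higher and 8.46% lower. Lmna, the lamin A/C gene of the nuclear envelope, was higher by 1.16 ± 0.14 (SE; adjusted p = 0.000656, limma). Vim, the mesenchymal filament vimentin, was lower, with 8.19 and 7.69 in UTR, against 11.14, 11.37 and 10.50 in YFP- (difference -3.06 ± 0.26, SE; adjusted p = 0.000117, limma). Of the other cell type lists, 14 of 15 bile duct genes were higher in UTR, the hepatocyte list had 3 of 16 higher and 1 lower, and 9 of 9 endothelial, 5 of 8 macrophage, 3 of 5 neutrophil, 2 of 6 stellate and 0 of 6 lymphocyte markers were lower. Several of these counts moved when a single array was left out, while the endothelial and lymphocyte counts did not. Without YFP- replicate 1 the hepatocyte list had 6 lower and the macrophage list 7, and without YFP- replicate 3 the hepatocyte list had 6 higher and 0 lower. Without either UTR array alone the hepatocyte list had 0 lower and the neutrophil list 0 lower. Without YFP- replicate 2 there were 7 macrophage, 2 neutrophil and 3 stellate markers lower, and without YFP- replicate 3 there were 2 neutrophil markers lower. In the 5 arrays alone 3 bile duct and 2 hepatocyte markers were higher, and 9 endothelial, 3 macrophage, 0 neutrophil and 0 stellate markers were lower. Mesothelial markers were called higher in 3 of 8, Gpm6a (3.20), Msln (1.31) and Upk1b (1.01), and their mean level ran from 5.63 to 6.07 in YFP+, against 5.03 to 5.32 in YFP-. The count was 0 of 8 without UTR replicate 2 or in the 5 arrays alone, and 2 without any other UTR or YFP- array. The part of mesothelial cells in the keratin values was not tested.

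The genes whose profiles lay closest to each keratin were taken by the root mean square difference of centred profiles, as a description. Over the 11 arrays Krt8 was closest to Krt18 (0.14) and Krt19 (0.17), followed by the fibrocystin gene Pkhd1 (0.22), where the median over all genes was 2.17. Krt18 was closest to Krt8, Krt19 (0.21) and Smim22 (0.22), and Krt19 to Krt8, the annexin gene Anxa13 (0.17) and Pkhd1 (0.19). Krt7 lay closest to the cadherin gene Cdh6 (0.13), the factor Sox4 (0.15) and the agrin gene Agrn (0.16), and Krt23 to the factor Glis3 (0.23), Ddit4l (0.24) and the carrier gene Slc16a12 (0.25). Over the 11 arrays Krt7 had an SD of 1.92, against 0.33 within YFP+, and these arrays share the YFP- replicates. Krt20 had no close match, its nearest genes Trim43c, Ccdc96 and Magea1 lying at 0.35 to 0.36, where the median over all genes was 0.72.

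The closest genes within the 8 YFP+ arrays, where only Magea1 for Krt20 was named again, were as follows. Krt7 lay nearest to Sema4b, Wnt7b and Hdac7 (0.08 to 0.09), Krt8 to Ube2o, Myh9 and Vmn1r39 (0.06), Krt18 to Cd24a, Dlec1 and Mrfap1 (0.04), Krt19 to Hopx, Atp9a and Tmem151a (0.05 to 0.06), and Krt23 to Rell1, Dcaf13 and Lats2 (0.07 to 0.08). Krt20 lay nearest to Cyp2d40, Magea1 and Zbtb16 (0.32 to 0.33). Krt8 and Krt18 lay 0.12 apart in these arrays and Krt8 and Krt23 0.38 apart.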

How the data were processed

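Per array and feature the authors deposited a single value on a log2 scale, and 0 pairs of arrays were identical. Base 2 was inferred from the range (2.55 to 13.57). Background correction, normalization and probe summary: not given in the sources used here. Features were named through the platform annotation: 23185 of 25206 had 1 symbol, and 2021 are unnamed here. Group means of all 11 arrays were estimated in 1 fit by lmFit and eBayes of limma 3.58.1 under R 4.3.3 (7 residual degrees of freedom). The 8 YFP+ arrays were also fitted alone (5 degrees). Tests were two-sided, with Benjamini-Hochberg adjustment over 23185 genes and a threshold of 0.05. Precision is limited by how few arrays there are. The fit was tested on simulated data with 200 changed genes, drawn with the same spread in every group of a gene. The wider YFP- spread seen here was not simulated, so that run does not cover the calls against YFP-. Promoter sequences come from RefSeq, GRCm38.p6.

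The members, lists and tests were chosen with earlier results of these data known. Of 179 listed symbols in 14 lists 172 were measured, and the rest are not analysed here. Named were all members, up to 4 called genes per list (or up to 2 of the largest differences), genes of counts of 5 or fewer, and the 3 nearest profiles per member. Jup, Evpl, Pkp3 and Dst were named with their lists after their values were seen. Alternatives were an intensity trend, array weights, quantile normalization, centring, a filter on low genes, all features, a replicate block, fewer groups and leaving out each array.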

Additional observations from a re-analysis of the deposited data

How the results depend on the processing

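For UTR against YFP- the count of called keratins, 5 of 6, was 3 to 5 when single arrays were left out (3 without UTR replicate 1 or 2) and 0 in the 5 UTR and YFP- arrays alone, where fewer arrays estimate the spread; the cause was not otherwise tested. For all YFP+ against YFP- it was 5 or, by the exact permutation test without adjustment, 6. In the diet comparisons 0 keratins were called under all 28 alternatives each. No called difference changed sign. Uncalled ones did, alike in 11 and in 8 arrays. CDE minus UTR ranged from -0.21 to 0.19 for Krt18 with single arrays left out (0.025 without CDE replicate 2), -0.21 to 0.70 for Krt20 and -0.22 to 0.089 for Krt23. DDC minus UTR ranged from -0.033 to 0.37 for Krt18 and -0.19 to 0.40 for Krt20. DDC minus CDE ranged from -0.54 to 0.41 for Krt20, with 0.022 and 0.045 without DDC replicate 2 and 3. Whether replicate numbers pair samples or mark a batch is not known. Of 15 same-numbered pairs, 1 correlated above 0.1 in deviations from group means (range -0.07 to 0.13). A pair with different numbers reached 0.15. With so few arrays per group these correlations cannot show that pairing is absent. With a replicate block in 11 arrays CDE minus UTR was 0.10 for Krt8, 0.21 for Krt18 and 0.12 for Krt23, and DDC minus UTR was 0.078 for Krt19, all uncalled. Over all genes UTR against YFP- gave 4373 calls, 2432 and 2306 without UTR replicate 1 or 2, and 931 in 5 arrays. All YFP+ against YFP- gave 7083, and 4534 with array weights. DDC against CDE gave 1 call in 11 arrays, 269 in 8 arrays, 337 with array weights, 61 with a replicate block in 8 arrays and 16 to 211 with an array of those 8 left out. DDC against UTR gave 0, and 37 in 8 arrays (0 to 103 with 1 left out). CDE against UTR gave 0, and 46 in 8 arrays without UTR replicate 1. The filter on low genes removed Krt20. Background correction and slide could not be varied without scanner files.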

Other observations

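Krt80, a type II keratin and the neighbour of Krt7, was high on a single YFP- array. It read 5.90 and 6.27 in UTR, against 5.04, 8.13 and 6.01 on YFP- replicates 1, 2 and 3. Replicate 2 is the array with the highest lymphocyte and neutrophil markers, and its Krt7 value of 4.78 lay below the array median. Krt80 read 6.37, 6.99 and 5.90 in DDC and 5.59, 5.62 and 5.89 in CDE.

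Krt17 varied among the YFP+ arrays in another order than the 5 duct keratins. It read 6.64, 6.97 and 6.36 in DDC and 6.79, 7.69 and 7.84 in CDE, and DDC minus CDE was -0.78 ± 0.35 with an adjusted p of 0.335 (SE; limma, 8 arrays). Krt10, a type I keratin of stratified epithelium, read 6.58, 6.77 and 6.77 in DDC and 7.17, 6.80 and 7.02 in CDE.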
